A study of Mus musculus with 54 samples.

Results

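Gene expression after all-trans retinoic acid (ATRA) was compared between mouse embryonic stem cells with 1 deleted Ezh2 allele, the line labelled parental EZH2-heterozygote (het), and the parental line that carries both alleles (parental). The comparison took the 3 het and the 3 parental libraries made after ATRA, which are 6 of the 48 libraries of the series that could be matched to a label, and covered every gene that passed a filter on low counts. In the table of counts the parental columns are named flfl, and the design text gives the het genotype as Ezh2 fl/Δ, so the allele left in het is floxed, and the column name is the source for 2 floxed alleles in parental cells. Differentiation was brief and was induced by taking away 2i and LIF, the inhibitors and cytokine that hold stem cells in the naive state, and adding ATRA. The other lines used are the het line with added EZH2-WT (WT) or with an added EZH2 variant (A733T, A677T, K563E, K634E or R679C), and a line labelled Y728 mutant was not analysed here. Libraries of het and parental cells in the undifferentiated state (mESC) were used to show where the comparison after ATRA differed. The labels name 1 het and 1 parental line and do not say whether replicates were grown apart. Spread between replicates may therefore be technical, and a p-value reflects nothing beyond that spread. After ATRA the spread was estimated over the 24 libraries of 8 lines, not from the 6 compared libraries alone. With a single line on each side, the deleted allele and any other difference between the lines cannot be told apart.

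EZH2 is the enzyme of Polycomb repressive complex 2 (PRC2) and methylates lysine 27 of histone H3, a mark that holds developmental genes silent in stem cells. Retinoic acid enters the nucleus, binds heterodimers of retinoic acid and retinoid X receptors, and switches on targets such as the Hox clusters and the Cyp26 enzymes that degrade it. A small share of cells in stem cell cultures passes through a state that resembles the 2-cell embryo, in which the factor DUX switches on the Zscan4 genes and other short-lived transcripts.

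The promoters below are shown because the largest differences between het and parental cells lay in the Zscan4 cluster and in Meg3. They were taken from RefSeq on GRCm38.p6 and run from 250 bases before to 50 bases after the gene start. For the 4 Zscan4 genes, capitals mark the match to the DUX motif, searched on both strands as TGATT, any 2 bases, then ATCA, and found here on the opposite strand. For Meg3, capitals mark a cAMP response element, TGACGTCA, the site that CREB family factors recognise.
Zscan4b: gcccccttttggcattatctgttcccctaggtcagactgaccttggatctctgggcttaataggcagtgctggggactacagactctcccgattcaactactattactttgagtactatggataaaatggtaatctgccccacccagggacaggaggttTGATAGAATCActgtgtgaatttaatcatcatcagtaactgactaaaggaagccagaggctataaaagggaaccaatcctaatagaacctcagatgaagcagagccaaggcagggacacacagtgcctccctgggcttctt
Zscan4c: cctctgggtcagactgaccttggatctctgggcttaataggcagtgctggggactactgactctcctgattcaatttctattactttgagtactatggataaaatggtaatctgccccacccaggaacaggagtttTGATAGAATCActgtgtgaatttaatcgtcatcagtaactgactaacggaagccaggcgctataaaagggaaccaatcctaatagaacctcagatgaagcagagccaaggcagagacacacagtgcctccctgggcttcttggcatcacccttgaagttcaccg
Zscan4d: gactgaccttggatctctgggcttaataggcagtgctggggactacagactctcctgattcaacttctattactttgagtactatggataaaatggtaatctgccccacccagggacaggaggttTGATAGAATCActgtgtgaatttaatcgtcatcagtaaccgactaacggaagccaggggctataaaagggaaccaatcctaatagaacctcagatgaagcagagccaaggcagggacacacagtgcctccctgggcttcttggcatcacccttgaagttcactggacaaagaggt
Zscan4f: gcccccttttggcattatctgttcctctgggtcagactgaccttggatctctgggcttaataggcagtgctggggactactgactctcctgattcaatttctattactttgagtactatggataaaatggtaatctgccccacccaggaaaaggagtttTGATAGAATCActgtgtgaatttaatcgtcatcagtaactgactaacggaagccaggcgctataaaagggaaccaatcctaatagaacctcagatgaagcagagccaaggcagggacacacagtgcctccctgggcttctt
Meg3: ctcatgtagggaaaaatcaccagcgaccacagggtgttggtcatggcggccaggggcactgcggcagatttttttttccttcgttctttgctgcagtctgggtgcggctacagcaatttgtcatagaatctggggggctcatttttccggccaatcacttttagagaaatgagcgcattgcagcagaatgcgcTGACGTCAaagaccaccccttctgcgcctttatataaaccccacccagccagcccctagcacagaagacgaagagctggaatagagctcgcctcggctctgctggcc
The Zscan4b promoter lies at chr7:10905001-10905300 on the minus strand, that of Zscan4c at chr7:11005495-11005794 on the plus strand, that of Zscan4d at chr7:11166099-11166398 on the minus strand and that of Zscan4f at chr7:11397665-11397964 on the plus strand. All 4 held 1 match, with the same letters, and they shared an unbroken run of 55 bases, so that they are not independent cases. Over all 32851 promoters in the table, 0.207% held the motif. The promoters in the table covered 26 genes of the 2-cell-like list, and 4 of them, the Zscan4 genes above, held it. The Meg3 promoter lies at chr12:109540746-109541045 on the plus strand, and 1.79% of all promoters held its element.

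After ATRA, 1064 of 17030 genes tested changed between het and parental cells (6.25%), by edgeR's quasi-likelihood test with a Benjamini-Hochberg adjusted p under 0.05. Of these, 374 were higher in het (2.2%) and 690 lower (4.05%). The counts of called list members below stand against these shares. The lower genes moved further, with a median log2 fold change of -0.69 against 0.38 for the higher genes. At least 2-fold changes numbered 222 lower (1.3%) and 20 higher (0.117%). Without het replicate 1, the count of changed genes was 648. The count at an unadjusted p under 0.05 was 2868. In 684 of the lower genes (4.02% of genes tested) and 372 of the higher ones (2.18%) the het and parental libraries did not overlap. Genes named by rule had to show no such overlap, so that for them it is no further support. Levels are given as CPM, counts per 1000000 library counts, and fold changes are log2 of het over parental.

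**Figure D1:**
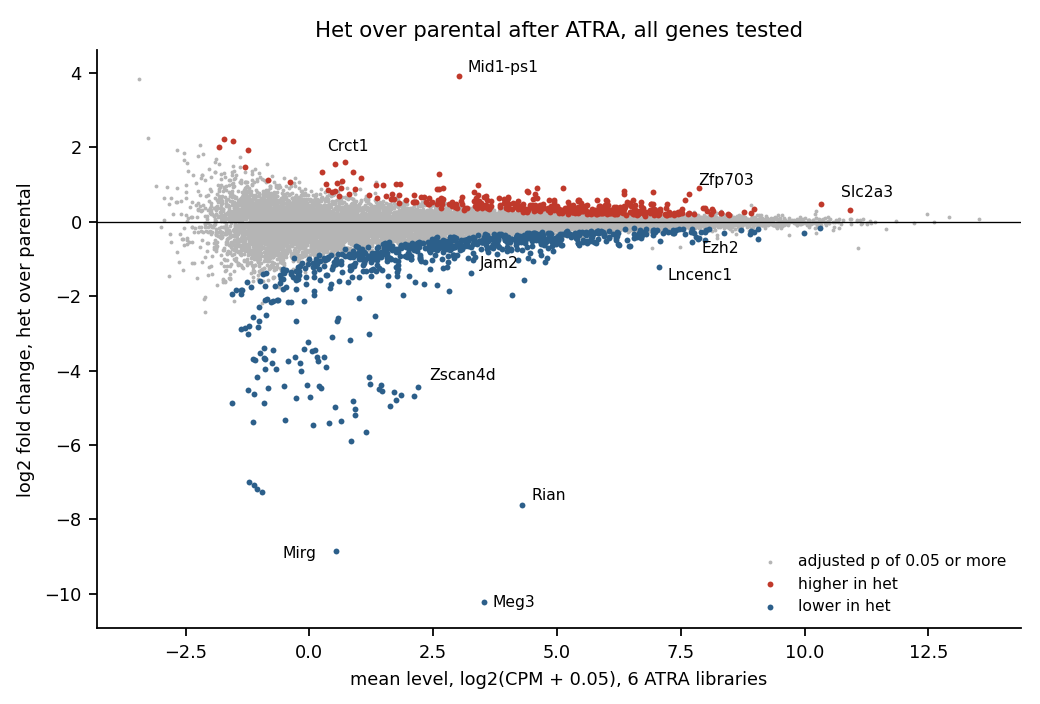
Log2 fold change of het over parental after ATRA (vertical) against the mean level over the 6 libraries as log2(CPM + 0.05) (horizontal), 1 point per gene tested. The 374 genes higher in het are red and the 690 lower are blue; the blue points reach far below the red ones and end at Meg3, while Mid1-ps1 at 3.91 is the highest red point.

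The targeted gene was measured first. Ezh2, at chromosome 6 from 47530139 to 47595341, had 239, 243 and 233 CPM in the 3 het libraries, against 274, 284 and 279 CPM in the parental libraries. The groups did not overlap, and Ezh2 fell by 0.23 on the log2 scale (SE 0.06, edgeR adjusted p = 0.0109). Counts per gene cover the whole transcript, so that RNA made from the deleted allele is not told apart from that of the intact one. The call was lost without het replicate 1 (adjusted p = 0.0586), het replicate 3 (0.0607) or parental replicate 2 (0.0672), all by edgeR. Keeping genes of every count gave 0.0628. In mESC the fold change of Ezh2 was -0.11 (edgeR adjusted p = 0.562), and the difference between the states was -0.12 (edgeR adjusted p = 0.954).

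Among the 15 tested genes of the PRC2 subunit and cofactor list, 3 were lower in het (20%), none higher, and the median was -0.07. Besides Ezh2 these were Jarid2, which brings PRC2 to its targets, and Eed, the subunit that reads the mark. Jarid2 had 399, 373 and 394 CPM in het and 442, 462 and 445 CPM in parental cells, and fell by 0.22 (edgeR adjusted p = 0.00732). Eed had 123, 118 and 117 CPM in het and 141, 138 and 139 CPM in parental cells, a log2 fold change of -0.23 (edgeR adjusted p = 0.0265). The groups did not overlap for either gene, but without 1 library the list held between 0 and 2 lower genes, with 1 left without any one het library and 0 without parental replicate 2. With no filter on low counts the adjusted p was 0.0923 for Jarid2 and 0.109 for Eed, by edgeR. Suz12, the subunit that holds the core together, was at -0.21 (adjusted p = 0.512), and Ezh1, the other methyltransferase, at -0.14 (adjusted p = 0.455), by edgeR. Suz12 passed with the 6 libraries alone (edgeR adjusted p = 0.0159) and with a correction for GC content (0.0164), where the list held 4 and 5 lower genes.

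PRC1 binds the mark and ubiquitinates histone H2A, and 4 of its 25 listed genes were lower in het (16%) and none higher. Cbx7, the chromodomain reader that dominates in stem cells, had 162, 174 and 183 CPM in het against 246, 254 and 250 CPM in parental cells. No het library reached the lowest parental one, and Cbx7 fell by 0.54 (SE 0.10, edgeR adjusted p = 0.000454). Cbx8, another reader, fell by 1.37 (edgeR adjusted p = 0.007). Bmi1, a PRC1 ring finger subunit, fell by 0.53 (edgeR adjusted p = 0.00708), but missed the threshold with het replicate 3 left out (0.0563).

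The largest falls were in the maternally expressed noncoding RNAs of an imprinted domain on chromosome 12, Dlk1-Dio3. Meg3 had 0.0306, 0 and 0 CPM in het libraries, against 20.5, 24.3 and 23.9 CPM in parental libraries. That is 1 count in het and 1553 in parental cells, a 1718-fold difference with a 95% counting interval of 308 to 67920 that covers counting error only. Rian, a host of small nucleolar RNAs, had 0.337, 0.171 and 0 CPM in het and 38.6, 39.9 and 39.1 CPM in parental cells, and fell by 7.61. Mirg, a host of microRNAs, had no count in het and 189 in parental cells, at least 69.7-fold lower with a floor of 3 counts over the het group. All 3 RNAs were near or at 0 in every het library and present in every parental library. They passed the filter through the parental libraries, where they were high, so that their falls are a description, given with no p.

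Dlk1 and Rtl1, which are expressed from the paternal allele, also fell. Dlk1, a membrane protein that restrains differentiation, had 7.81, 7.05 and 7.14 CPM in het and 13.2, 12.4 and 9.42 CPM in parental cells, a fall of 0.68 (SE 0.12, edgeR adjusted p = 0.000597). Rtl1, a retrotransposon-derived placental gene, had 0.0918, 0.171 and 0.151 CPM in het and 0.457, 0.352 and 0.789 CPM in parental cells, a fall of 1.95 (edgeR adjusted p = 0.0102). This call was lost without het replicate 1 (0.0955) or parental replicate 3 (0.0884). Whether counting used strand is not given in the sources used here, so that antisense reads in the region cannot be told apart. Of the 16 genes of the list, 14 were tested, of which 5 fell (35.7%) and none rose. The noncoding RNAs were near 0 in het mESC too, where Meg3 had 3 counts in het and 2187 in parental cells, an 841-fold difference with an interval of 288 to 4083. In the WT, A733T, A677T, K563E, K634E and R679C lines, the summed level of Meg3, Rian and Mirg after ATRA was at most 0.943 CPM, against 61.55 to 66.96 CPM in parental cells. Dlk1 did not stay low in all of these lines. After ATRA it averaged 12.4 CPM in WT and K563E, 13.2 CPM in R679C and 24.9 CPM in A733T. It averaged 9.87 CPM in K634E and 6.94 CPM in A677T, against 7.33 CPM in het and 11.7 CPM in parental cells.

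Genes of the 2-cell-like state were lower in het. Of 57 genes in the list, 32 were tested, 19 were under the filter and 6 were not in the annotation, and 30 of the 32 were lower in het, each at least 2-fold. The median of the tested members was -4.42, against 0.00 over all genes tested. These genes passed the filter through the lines where they were high, so that their count and fold changes are a description, given with no p. Zscan4d, a SCAN and zinc finger factor of telomere maintenance, had 0.459, 0.427 and 0.252 CPM in het, against 7.97, 8.75 and 9.22 CPM in parental cells. Every parental library stood far above the highest het library, a log2 fold change of -4.44 (SE 0.28). Pramef25, of the PRAME family, had 0.153, 0.128 and 0.402 CPM in het and 5.09, 4.78 and 4.98 CPM in parental cells, a log2 fold change of -4.51. Usp17le, a deubiquitinating enzyme, had 0.245, 0.299 and 0.252 CPM in het and 5.8, 7.34 and 7.45 CPM in parental cells, a log2 fold change of -4.67. For both genes all parental libraries stood far above all het libraries.

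All 9 Zscan4 genes and pseudogenes tested fell. Their counts are uncertain one by one, because the copies are near-identical and how reads with several map positions were handled is unknown. Summed over the family, het libraries held 1.71 to 1.99 CPM and parental libraries 46.9 to 52.9 CPM. In mESC the sum was 0 to 0.0531 CPM in het and 3.13 to 4.35 CPM in parental cells, so that both lines were higher after ATRA and het was the lower one in both states. In WT the sum after ATRA was 7.31 to 10.1 CPM and in A733T 15.6 to 19.3 CPM, and the A677T, R679C, K634E and K563E lines lay between 1.95 and 8.92 CPM. In bulk libraries, fewer cells in the state and less RNA per cell cannot be told apart. The 2 tested members that did not pass were the translation factor Eif1a at -0.08 (adjusted p = 0.844) and the zinc finger gene Zfp809 at -0.20 (adjusted p = 0.236) by edgeR.

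**Figure D2:**
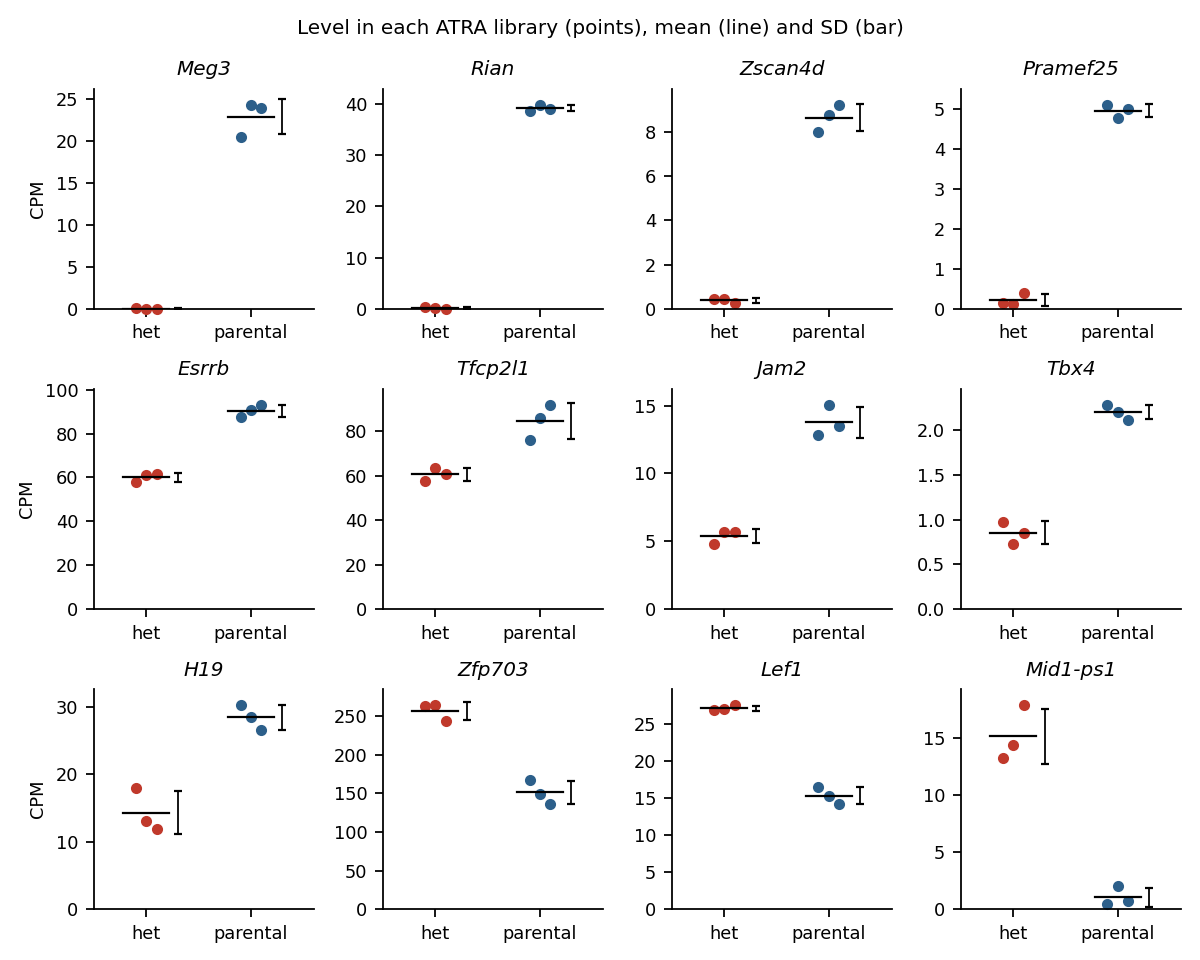
Level in CPM of 12 genes in the 3 het (red, left) and 3 parental (blue, right) libraries after ATRA, with the mean as a line and the SD as a bar beside the points. No gene shown has overlapping groups; Meg3 and Rian lie at or near 0 in het, and Zfp703, Lef1 and Mid1-ps1 are the 3 that are higher in het.

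**Figure D3:**
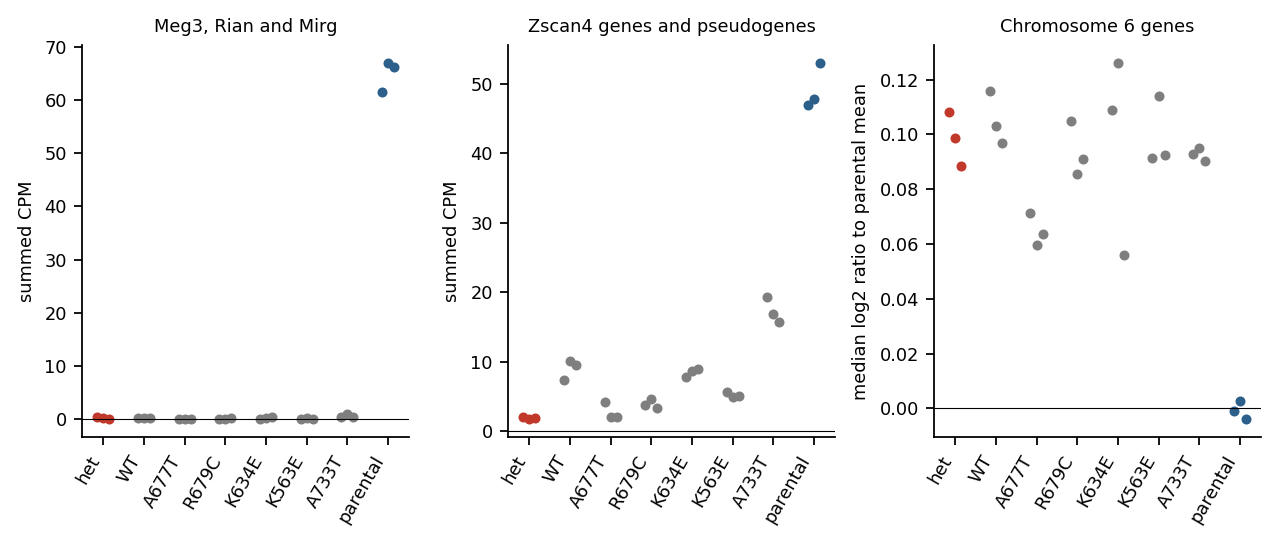
Each point is 1 ATRA library of the line on the horizontal axis, het at the left (red) and parental at the right (blue), with the 6 analysed lines made from het in grey. The panels show the summed CPM of Meg3, Rian and Mirg, the summed CPM of Zscan4 genes and pseudogenes, and the median log2 ratio of chromosome 6 genes to the parental mean; in all 3 the grey points lie apart from the parental points.

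Genes of naive pluripotency fell after ATRA. Of 31 genes, all tested, 15 were lower in het (48.4%) and 2 higher (6.45%), with a median of -0.23. The lower count ranged from 9 to 12 without 1 of the 6 libraries, and was lowest without parental replicate 3. Retinoic acid lowered 28 of the 31 in parental cells, where 26.5% of all genes tested fell. Esrrb, a nuclear receptor of the naive network, had 57.8, 61 and 61.4 CPM in het and 87.4, 90.8 and 93 CPM in parental cells, a fall of 0.60 (SE 0.07, edgeR adjusted p = 5.66e-07). Tfcp2l1, its partner in the network, had 57.7, 63.6 and 60.9 CPM in het and 76.2, 86 and 91.8 CPM in parental cells, a fall of 0.48 (edgeR adjusted p = 2.58e-05). Jam2, an adhesion molecule, had 4.78, 5.64 and 5.68 CPM in het and 12.8, 15 and 13.5 CPM in parental cells, a fall of 1.37 (SE 0.15, edgeR adjusted p = 4.05e-07). For these 3 genes each het library lay below each parental library.

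In mESC, 1 of the 31 genes was lower in het, Jam2 at -0.27 (edgeR adjusted p = 0.00388), and the median was 0.06. The difference between the states, tested over all 48 libraries, passed for 129 of 17683 genes (0.73%), of which 72 were lower in ATRA than in mESC (0.407%) and 57 higher (0.322%). Among the naive genes it passed for 8, all lower after ATRA. It was -0.68 for Esrrb (adjusted p = 1.91e-05), -1.10 for Jam2 (4.24e-07), -0.50 for Tfcp2l1 (0.00076), -0.41 for Manba (0.000288) and -1.01 for Tcl1 (0.000708), all by edgeR. The other three, chosen after their values were seen, were the Krüppel-like factors Klf2 at -0.55 (adjusted p = 0.0177) and Klf4 at -0.63 (0.00103), and Tdh, the threonine dehydrogenase of stem cells, at -0.76 (6.16e-05), by edgeR. The call for Klf2 was lost without het replicate 1 (0.118) or parental replicate 1 (0.0529).

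Core factors were looked at after their values were seen. Pou5f1, which encodes OCT4, had 426, 408 and 387 CPM in het and 447, 418 and 397 CPM in parental cells, with overlapping groups and a log2 fold change of -0.05 (edgeR adjusted p = 0.839). Nanog, chosen in the same way, was at -0.27 (edgeR adjusted p = 0.043), a call lost in 5 of the 6 fits that left out 1 library. Sox2, also a neural factor, was higher in het by 0.32 (edgeR adjusted p = 0.0103). It missed the threshold when het replicate 1 (0.0831) or parental replicate 3 (0.111) was left out. Gbx2, which is both a naive factor and a hindbrain boundary gene, had 42.5, 36.4 and 31.7 CPM in het and 28.7, 23.8 and 20.4 CPM in parental cells, a rise of 0.59 (edgeR adjusted p = 0.000221).

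**Figure D4:**
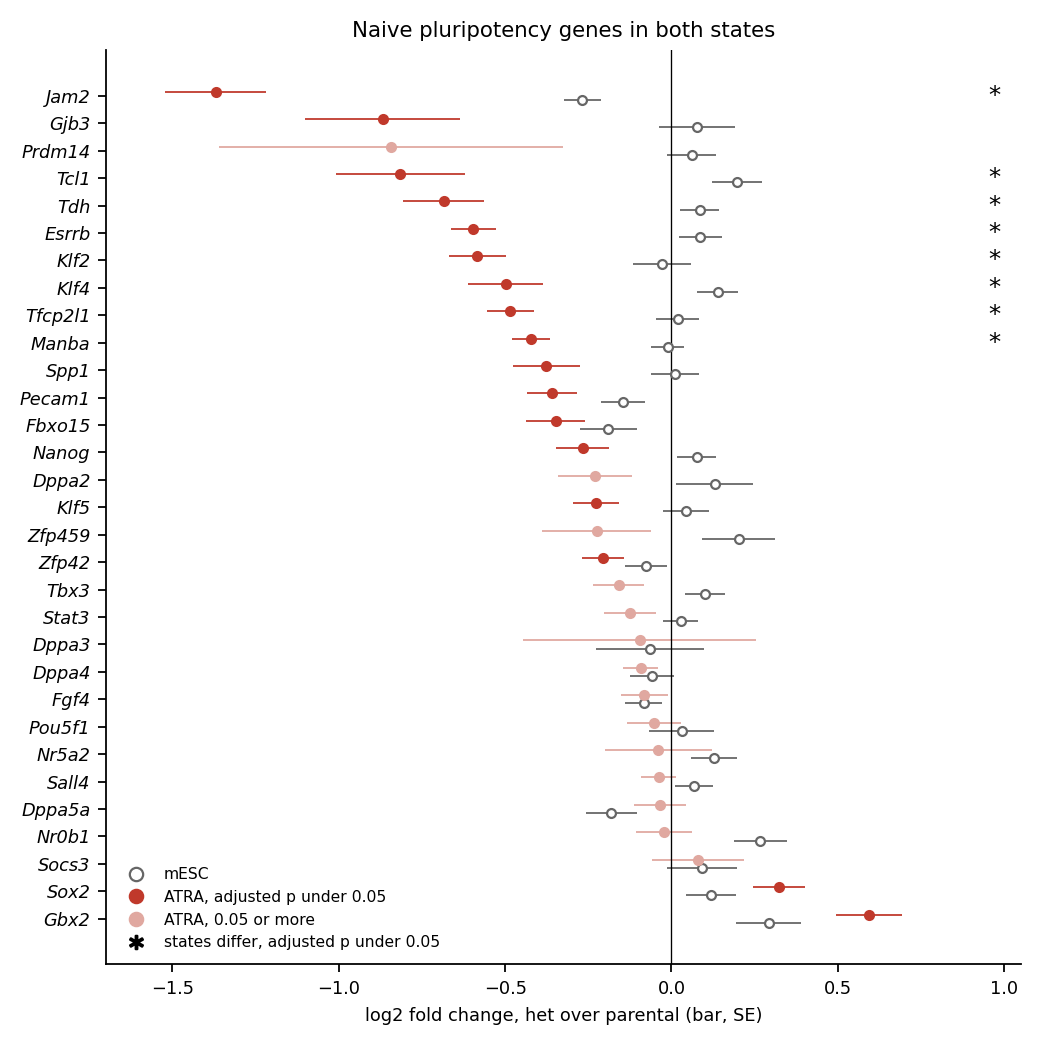
Log2 fold change of het over parental with its SE for the 31 naive pluripotency genes, after ATRA (filled, red where the adjusted p is under 0.05) and in mESC (open). The asterisks mark the 8 genes for which the difference between the states passed the test; all 8 are lower after ATRA, while mESC values lie between -0.27 for Jam2 and 0.29 for Gbx2.

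Genes of the formative and primed epiblast moved the other way on balance. Of 27 tested, 8 were higher in het (29.6%) and 3 lower (11.1%), with a median of 0.11. Without 1 library the count of higher genes was 5 to 9, and it was 5 without parental replicate 3, while the count of lower genes was 0 to 4. Lef1, a transcription factor of the WNT pathway, had 26.8, 27 and 27.5 CPM in het and 16.5, 15.3 and 14.2 CPM in parental cells, a rise of 0.81 (SE 0.09, edgeR adjusted p = 4.81e-07). Sall2, a zinc finger factor, had 109, 101 and 96.2 CPM in het and 68.5, 57.5 and 56.6 CPM in parental cells, a rise of 0.74 (edgeR adjusted p = 5.67e-08). Sox3 rose by 0.55 (adjusted p = 4.63e-05) and Sox11, like it a factor of neural progenitors, by 0.41 (adjusted p = 0.00248), by edgeR. In all 4 genes the lowest het library was above the highest parental one. The 3 lower genes were Grhl2 at -0.51 (adjusted p = 0.0275), Etv4 at -0.29 (0.0192) and Dnmt3a at -0.27 (0.0174), by edgeR. Each of these calls was lost in at least 1 fit that left out a library. In mESC, 5 of the 27 were higher in het and none lower, with a median of 0.11. The difference between the states passed for 1 of them.

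In the list of retinoic acid metabolism, receptors and response, 7 of 34 genes tested were higher in het (20.6%) and 2 lower (5.88%). The median was 0.01. Without 1 library the higher count was 5 to 7 and the lower count 0 to 3. Zfp703, a zinc finger repressor that retinoic acid induces, had 264, 264 and 244 CPM in het and 167, 150 and 137 CPM in parental cells. All het libraries were above all parental ones, and Zfp703 rose by 0.76 (SE 0.09, edgeR adjusted p = 1.30e-06). In mESC it was at -0.72 (adjusted p = 0.19), and the difference between the states was 1.49 (adjusted p = 0.00211), by edgeR. Meis2, a homeobox partner of Hox proteins, had 88.5, 88.9 and 88.5 CPM in het and 67.2, 69.5 and 62.8 CPM in parental cells, a rise of 0.41 (edgeR adjusted p = 2.65e-05). Tshz1, a teashirt family repressor, rose by 0.64 (edgeR adjusted p = 4.17e-05). For these genes the groups did not overlap. The binding protein Crabp2 (0.57, adjusted p = 0.0169) and the retinal reductase Dhrs3 (0.24, adjusted p = 0.0305) were also among the higher genes, by edgeR.

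The receptors Rara and Rarg and the degrading enzyme Cyp26a1, chosen after their values were seen, did not pass with no correction for GC content. Rara was at 0.15 (adjusted p = 0.338) and Rarg at -0.12 (adjusted p = 0.597), by edgeR. With a correction for GC content Rara was past the threshold, at 0.18 (edgeR adjusted p = 0.0164). Cyp26a1 had 339, 334 and 335 CPM in het and 368, 350 and 366 CPM in parental cells, a log2 fold change of -0.11 (SE 0.08, edgeR adjusted p = 0.57). Crabp1, which binds retinoic acid in the cytoplasm, was lower by 0.73 (edgeR adjusted p = 0.0086), and missed the threshold with het replicate 1 (0.101) or parental replicate 3 (0.0665) left out. The direct repeat AGGTCA, any 5 bases, AGGTCA, the classical response element, searched on both strands, was in none of the promoters of the 29 listed genes that the RefSeq table covers and in 0.00913% of all promoters, which says only that these letters are not in this window.

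Of 31 Hox genes tested, 3 were higher in het (9.68%) and 4 lower (12.9%), against 2.2% and 4.05% of all genes tested. The median was -0.14. The higher ones were Hoxa2, Hoxa3 and Hoxa10, all on chromosome 6, and the count of higher genes was 0 to 2 without 1 library, with 0 when het replicate 1 or parental replicate 3 was left out, and 1 when het replicate 2, het replicate 3 or parental replicate 2 was. Among the lower ones, Hoxb9 had 28.5, 27.1 and 24.3 CPM in het and 39.1, 39.6 and 37.5 CPM in parental cells, a fall of 0.54 (edgeR adjusted p = 4.11e-05). Hoxa7 fell by 0.72 (adjusted p = 3.25e-05) and Hoxd13 by 1.20 (adjusted p = 0.00113), by edgeR, with no overlap between the groups. The fourth was Hoxd9, at -1.73 (edgeR adjusted p = 0.0279).

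Of 59 tested developmental Polycomb targets, 16 were lower in het (27.1%) and 3 higher (5.08%), and the median was -0.36. A further 28 of the 87 in the list were under the filter. Without het replicate 1, 9 were lower, and 10 without het replicate 3. Foxc1, a forkhead factor of mesoderm, had 0.459, 0.598 and 0.352 CPM in het and 1.33, 1.61 and 1.04 CPM in parental cells, a fall of 1.48 (SE 0.28, edgeR adjusted p = 0.000905). Tbx4, the T-box gene of the hindlimb, had 0.98, 0.727 and 0.855 CPM in het and 2.28, 2.21 and 2.12 CPM in parental cells, a fall of 1.36 (SE 0.23, edgeR adjusted p = 0.000198). Wt1, a zinc finger gene of kidney and gonad, was among the higher ones with 49.7, 46.7 and 39.4 CPM in het and 29.4, 20.3 and 22.6 CPM in parental cells, a rise of 0.90 (edgeR adjusted p = 1.38e-07). The groups did not overlap for these 3 genes. In mESC, 8 of the 35 listed targets tested were lower in het and 1 higher, with a median of -0.51.

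Trophoblast markers were lower in het for 7 of 12 genes tested (58.3%) and higher for 1 (8.33%), with a median of -0.63. Without het replicate 1 the count of lower genes was 2, and it was 4 without het replicate 2 or parental replicate 1. Cdx2, the master factor of trophectoderm and also a factor of the posterior body, had 1.32, 1.71 and 1.26 CPM in het and 3.79, 3.57 and 3.31 CPM in parental cells, a fall of 1.33 (SE 0.16, edgeR adjusted p = 1.20e-06). Tfap2c, a factor of trophoblast and germ cells, had 11.8, 13 and 13.2 CPM in het and 20.7, 20.9 and 21.7 CPM in parental cells, a fall of 0.74 (edgeR adjusted p = 3.13e-06). Fgfr2, the receptor that maintains trophoblast stem cells and is also made in epithelia, rose by 0.45 (edgeR adjusted p = 0.0024). Of the 17 genes in the list, Tpbpa and Prl3d1, defining markers of differentiated trophoblast, had 0 counts in all 6 libraries. In mESC, 3 of the 9 trophoblast markers tested were lower in het and 2 higher, with a median of -0.71.

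Germline genes were lower in het for 10 of 39 tested (25.6%) and none was higher, with a median of -0.34. The count was 4 without het replicate 1, 5 without het replicate 3 or parental replicate 2 and 6 without parental replicate 1, but 16 with the 6 libraries alone and 18 after correcting for GC content. Tex19.1, which guards germ cells and placenta against retrotransposons, had 58.2, 61 and 59.9 CPM in het and 97.2, 97 and 82.2 CPM in parental cells, a fall of 0.63 (edgeR adjusted p = 0.000284). Dazl, an RNA-binding protein of germ cells, fell by 0.72 (edgeR adjusted p = 0.00342). In mESC, 4 of the 31 germline genes tested were lower in het and none higher, with a median of -0.30.

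Outside the Dlk1-Dio3 region, 9 of 61 imprinted genes tested were lower in het (14.8%) and 2 higher (3.28%). H19, the maternally expressed RNA next to Igf2, had 18, 13 and 11.9 CPM in het and 30.2, 28.5 and 26.5 CPM in parental cells, a fall of 0.98 (SE 0.12, edgeR adjusted p = 3.72e-06). In mESC it fell by 1.99 (edgeR adjusted p = 3.84e-07). Cdkn1c, a cell cycle inhibitor, had 50, 46.1 and 37.6 CPM in het and 71, 71.2 and 56.9 CPM in parental cells, a fall of 0.58 (edgeR adjusted p = 0.000431). Slc38a4, an amino acid transporter, had 209, 223 and 200 CPM in het and 300, 295 and 293 CPM in parental cells, a fall of 0.50 (edgeR adjusted p = 6.54e-07). Sfmbt2, a Polycomb group gene, fell by 0.77 (edgeR adjusted p = 1.86e-05), and H13, a signal peptide peptidase, rose by 0.58 (edgeR adjusted p = 4.17e-05). No library of one line overlapped the other in these 5 genes. In mESC, 8 of the 56 listed imprinted genes tested were lower in het and 1 higher, with a median of -0.03.

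Targets of p53 were lower in het for 11 of 32 genes tested (34.4%) and none was higher, with a median of -0.22. The count was 6 without het replicate 3, 7 without the first replicate of het or of parental cells, 18 with the 6 libraries alone and 21 after correcting for GC content. Cdkn1a, the p21 inhibitor, had 54.9, 51.1 and 50.8 CPM in het and 81.9, 72.3 and 67.8 CPM in parental cells, a fall of 0.51 (edgeR adjusted p = 1.51e-05). Plk2, a kinase induced by p53, had 45, 43.3 and 43 CPM in het and 63.1, 63.1 and 65.8 CPM in parental cells, a fall of 0.55 (edgeR adjusted p = 3.63e-06). Gdf15, a secreted stress signal, had 2.36, 3.63 and 3.57 CPM in het and 7.38, 7.99 and 7.35 CPM in parental cells, a fall of 1.27 (edgeR adjusted p = 5.97e-05). Every parental library was above every het library in all 3. In mESC, 7 of the 32 targets were lower in het and 1 higher, with a median of -0.25.

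Cholesterol synthesis genes were higher in het for 8 of 25 tested (32%) and lower for none. Of the 25, 23 had a positive fold change, with a median of 0.24. In mESC none of the 25 was called, and the median was 0.03. The count was 5 without parental replicate 2 or 3, 13 with a correction for GC content and 15 with the 6 libraries alone. Msmo1 and Cyp51 act in sequence on the sterol ring. Msmo1 had 105, 109 and 106 CPM in het and 84.6, 84.3 and 76.8 CPM in parental cells, a rise of 0.37 (edgeR adjusted p = 0.000866). Cyp51 had 124, 122 and 117 CPM in het and 101, 88.9 and 90.1 CPM in parental cells, a rise of 0.36 (edgeR adjusted p = 0.000221). The groups did not overlap for either gene, and the difference between the states did not pass for them (adjusted p = 0.161 for Msmo1 and 0.093 for Cyp51, by edgeR).

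**Figure D5:**
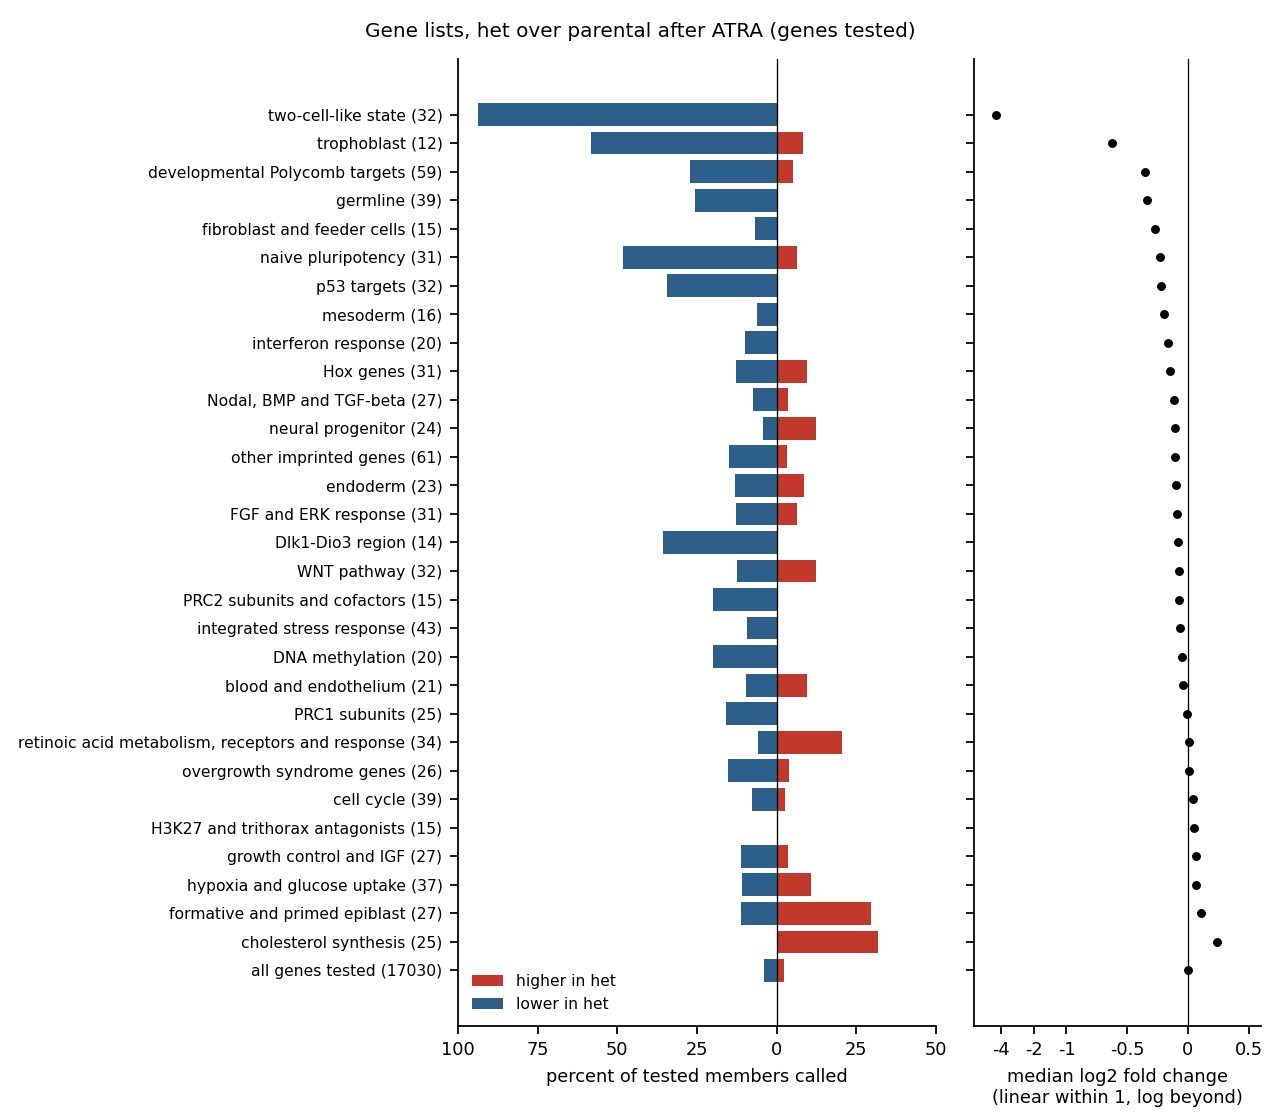
For each gene list (genes tested in brackets), the percent of tested members called higher (red) or lower (blue) in het after ATRA, and the median log2 fold change at the right. The 2-cell-like list at the top has 93.8% lower, cholesterol synthesis has 32% higher, and all genes tested, in the last row, stand at 4.05% lower and 2.2% higher.

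Single genes with the largest rise included several not in the lists. Mid1-ps1, a pseudogene of Mid1 annotated on chromosome Y from 90753057 to 90763485, had 13.2, 14.4 and 17.8 CPM in het and 0.422, 2.01 and 0.74 CPM in parental cells, a rise of 3.91 (SE 0.28). Mid1-ps1 passed the filter through het and the lines made from het, where it was high, so that its rise is a description, given with no p. In mESC it averaged 14.6 ± 2.3 CPM in het and 0.624 ± 0.293 CPM in parental cells (SD, n = 3 each), and the means of the 6 analysed lines made from het were 10.9 to 16.7 CPM after ATRA. Gm47283, also annotated on chromosome Y and chosen after its values were seen, had 268, 296 and 349 CPM in het and 157, 159 and 167 CPM in parental cells, a rise of 0.91 (edgeR adjusted p = 1.96e-08). The groups did not overlap for either gene. Reads of a pseudogene may be shared with its parent gene, so its counts are uncertain. Mid1 on chromosome X, looked up for this reason, had 11, 11.8 and 14 CPM in het and 8.71, 10.7 and 14.4 CPM in parental cells (log2 fold change 0.12, edgeR adjusted p = 0.708). The Y-linked genes Ddx3y, Uty, Eif2s3y and Kdm5d had 0 counts over the 12 het and parental libraries of both states.

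Among genes with a rise of at least 2-fold, Cxcl12, the chemokine that guides migrating cells, had 8.82, 8.16 and 8.9 CPM in het and 3.69, 3.22 and 3.55 CPM in parental cells, a rise of 1.30 (edgeR adjusted p = 1.06e-06). Kcnj8 and Abcc9, which encode the channel and the regulatory subunit of a potassium channel, rose by 1.35 (adjusted p = 0.00231) and 1.33 (adjusted p = 4.76e-05), by edgeR. Ttk and Rnf165 rose by less than 2-fold. Ttk, a kinase of the spindle checkpoint, had 160, 159 and 150 CPM in het and 87.2, 88.5 and 92.6 CPM in parental cells, a rise of 0.80 (edgeR adjusted p = 1.21e-08). Rnf165, a ubiquitin ligase of motor axons, had 109, 99.2 and 108 CPM in het and 60.2, 60.3 and 56.8 CPM in parental cells, a rise of 0.83 (edgeR adjusted p = 2.00e-09). Among abundant genes that fell, Lncenc1, a noncoding RNA of naive cells, had 73.9, 84.2 and 85.4 CPM in het and 172, 186 and 200 CPM in parental cells, a fall of 1.20 (edgeR adjusted p = 1.34e-10). In mESC it fell by 1.13 (edgeR adjusted p = 5.91e-12).

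Genes on chromosome 6, where Ezh2 lies, had fold changes shifted upward. The median log2 fold change was 0.09 over 872 genes tested there, and between -0.03 and 0.03 on each other autosome and X. On chromosome 6, 67.8% of genes had a positive fold change, and 68 were called higher (7.8%), which is 18.2% of all genes called higher. The median was positive in 14 of 15 bins of 10 Mb, the exception being 60 to 70 Mb, which held 19 genes. The same median was 0.09 in mESC. By library, the median log2 ratio to the parental mean was 0.108, 0.0985 and 0.0886 in het, 0.056 to 0.126 in the analysed lines made from het, and -0.00397 to 0.0026 in parental cells. Kcnj8, Abcc9, Cxcl12, Akr1b3, Slc2a3 and Nup205 are on this chromosome, and the part of the shared shift in their fold changes was not tested.

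In mESC, 544 of 15830 genes differed between het and parental cells (3.44%), 186 higher (1.17%) and 358 lower (2.26%). No library is shared between the states. Of the 15335 genes tested in both, 241 were called in both, which is 26.6% of the ATRA calls and 45.4% of the mESC calls among them. Of these, 179 were lower in both and 58 higher in both. The other 4, chosen after their values were seen, changed in opposite directions. Fgfr2 and Sox1, a neural progenitor factor, were higher in ATRA (0.45 and 0.32) and lower in mESC (-1.46 and -1.12), while Gadd45a, a stress gene, and the clone-named AC131065.2 were lower in ATRA (-0.25 and -0.46) and higher in mESC (0.62 and 0.43). The ATRA call for Sox1 was lost without het replicate 1 or 2 or parental replicate 2 or 3, and that for Gadd45a without any one het library or without parental replicate 1 or 2. The groups of Sox1 overlapped after ATRA.

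Added EZH2 gave a further view, as values side by side, since these lines share libraries with the comparison above. In WT, Ezh2 averaged 362 ± 5.04 CPM, against 238 ± 4.86 CPM in het and 279 ± 5.02 CPM in parental cells (SD, n = 3 each). Zfp703 was at 301 CPM in WT and Lef1 at 28.1 CPM, on the het side of the parental values. Esrrb was at 48.5 CPM, Tfcp2l1 at 41.2 CPM, Jam2 at 4.12 CPM and Lncenc1 at 55.4 CPM in WT, below het and parental cells. Cdx2 was at 4.25 CPM, Hoxa7 at 15 CPM and Hoxd13 at 2.5 CPM in WT, above every het library. Nupr1, a stress-induced chromatin factor, was at 11.7 CPM and Atf3 at 2.23 CPM in WT, below het (30.2, 37.2 and 35.1 CPM for Nupr1, and 8.63, 10.5 and 7.85 CPM for Atf3) and parental cells (50.7, 54 and 53.2 CPM, and 13.2, 12.9 and 12.8 CPM). Both genes belong to the integrated stress response list, of which 4 of 43 were lower in het (9.3%). The count was 1 without het replicate 1, 2 without het replicate 3 or any one parental library, 8 with the GC correction and 11 with the 6 libraries alone.

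The 6 libraries held 18829703 to 31338825 counts in het and 18636735 to 27483091 in parental cells, with 1.42% to 1.64% of counts on mitochondrial genes. The chi-square per degree of freedom between replicates of a group was 3.49 to 8.58, above counting error. Of fibroblast and feeder cell markers, 1 of 15 was lower (6.67%, against 4.05% of all genes tested). Their summed level was 1421 to 1670 CPM in het and 1323 to 1530 CPM in parental cells. Most of that sum was Fn1, a matrix protein, and Lum, S100a4 and Fap had 0 counts in all 6 libraries. Of blood and endothelium markers 2 of 21 were lower and 2 higher (9.52% each). Their sum was 119.2 to 126.2 CPM in het and 132 to 137.1 CPM in parental cells. The part of these cells in the results was not tested. Naive markers summed to 3157 to 3359 CPM in het and 3338 to 3678 CPM in parental cells after ATRA, and to 11170 to 11630 CPM in het and 10950 to 11820 CPM in parental cells in mESC.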

How the data were processed

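RNA was measured by sequencing in the het and parental lines and in other lines, of which 6 made from het were used, in 2 states with 3 libraries each. The libraries labelled Y728 mutant could not be matched to columns by name and were not analysed here. The authors deposited 1 table of raw counts per gene. The tools named are featureCounts 1.6.4, STAR 2.7.3a, cutadapt 3.2 and DESeq2 1.38.3, with mm10 as the build, per the submitters' processing notes. No annotation release or strand setting is given in the sources used here. In the table, 6 columns match no label and were not used.

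Counts were fitted with edgeR 4.0.16 (R 4.3.3, limma 3.58.1): filterByExpr, TMM scaling and the robust quasi-likelihood test, with 1 mean per line over the 24 ATRA libraries, and over all 48 libraries for the difference between states. Calls have a Benjamini-Hochberg adjusted p under 0.05. CPM are on TMM-scaled library sizes. Counts of 0 were given a floor of 3 counts over the group. The test was checked on simulated data, and the total counts were 18636735 to 31338825 per library. Named genes were, by rule, those past the threshold with a mean of at least 1 CPM and the largest fold change, smallest p or largest difference in mean CPM, leading list members, and those that differ most between states. Fixed names such as Ezh2 and Meg3 were added; members named to complete a small count, and genes so marked, were chosen after their values were seen. The comparison and the gene lists were chosen with earlier results of these data known. Promoters came from the RefSeq table of GRCm38.p6. Alternatives covered other scalings, filters, libraries, DESeq2 1.42.0, a GC correction and a replicate block. Figures used matplotlib 3.10.9. Some genes are not reported here.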

Additional observations from a re-analysis of the deposited data

Results flagged for a closer look

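The difference between the het effect after ATRA and the het effect in mESC passed the edgeR test for 129 genes, which is why the genes below stand out. Each value is the log2 fold change of het over parental after ATRA minus that in mESC.

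The naive pluripotency genes were all lower after ATRA, with Jam2 at -1.10, Tcl1 at -1.01, Tdh at -0.76, Esrrb at -0.68, Klf4 at -0.63, Klf2 at -0.55, Tfcp2l1 at -0.50 and Manba at -0.41. Of factors in other lists, Tfap2c was at -0.78, the posterior homeobox gene Cdx1 at -0.79, Gadd45a at -0.86 and Gdf15 at -0.93. Among other genes, Mreg, which acts in melanosome transport, was at -1.15, Ndrg2 at -1.17, Mapt, the microtubule protein tau, at -1.27, the interleukin-6 receptor Il6ra at -1.35, the peptidoglycan recognition protein Pglyrp1 at -1.92 and Ccser1 at -3.12. After ATRA, Ccser1 averaged 1.36 CPM in parental cells, 0.206 CPM in het and at most 0.474 CPM in the analysed lines made from het. In mESC it was under the filter. Ccser1 passed the filter through the parental ATRA libraries, where it was high, so that its value is a description.

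Other genes were higher after ATRA than in mESC. Fgfr2 was at 1.92, the protocadherin Pcdh1 at 1.63, Tent5a at 1.53, Zfp703 at 1.49, Sox1 at 1.45, the channel gene Unc80 at 1.44, Cdk5r2 at 1.42, H19 at 1.01, Fam171b at 0.99 and Sall2 at 0.63. For H19 the value reflects a smaller fall after ATRA than in mESC.

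Some of these calls rested on single libraries. The call for Ccser1 was lost without any one of the 6 ATRA libraries. It was lost without het replicate 1 for Gdf15, H19, Il6ra, Klf2, Pglyrp1, Sall2 and Unc80, and without het replicate 2 for Cdk5r2 and Pglyrp1. It was lost without parental replicate 1 for Cdx1, Il6ra, Klf2 and Unc80, without parental replicate 2 for Gdf15, Pglyrp1 and Sall2, and without parental replicate 3 for Cdk5r2, Pglyrp1 and Sall2.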

How the results depend on the processing

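The number of genes changed after ATRA was 1064, and leaving out 1 het or parental library gave 648 to 841, and leaving out K634E replicate 3 gave 1331. It was 1549 with only the 6 libraries of the comparison (570 higher and 979 lower), 1727 with the GC correction and 2046 with the GC correction and replicate block. For Ezh2, leaving out 1 library gave log2 fold changes of -0.2443 to -0.212, and no filter on low counts gave -0.2194, no longer past the threshold. In mESC the count was 544, 324 to 376 without 1 library, 845 with only the 6 libraries of the comparison, 1002 with the GC correction and 1112 with GC correction and block. The count of differences between states was 129, 73 to 107 without 1 library, 197 with 12 libraries and 265 with the GC correction. The cause of these shifts was not tested. With the replicate block alone the counts were 1493, 604 and 177. Same-numbered het and parental libraries had correlations of 0.177, -0.067 and 0.299, against -0.263 to 0.112 for differently numbered ones. The main fit did not pair libraries by number, and whether the numbers pair them was not tested. Pou5f1, which did not pass the test, was at -0.09045 to 0.004035 when 1 library was left out, the positive value without parental replicate 1. Of 163 named genes past the threshold, 103 kept call and direction in every setting that tested them, 60 lost the call without 1 library, 3 with the GC correction and 1 with DESeq2, and 0 changed direction.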

Other observations

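By kind of gene, 4.31% of 14241 protein-coding genes tested were lower in het after ATRA and 2.51% higher, against 4.05% and 2.2% of all genes tested. Of 1146 pseudogenes, 3.32% were lower and 0.262% higher, and of 1493 long noncoding genes 2.55% were lower and 0.871% higher. Keratin genes were lower for 4 of 14 tested (28.6%) and higher for none, with a median of -0.47. Krt8, a keratin of simple epithelia, averaged 18.9 ± 0.551 CPM in het and 25.8 ± 2.46 CPM in parental cells (SD, n = 3 each), a fall of 0.46 (edgeR adjusted p = 0.00297). Its partner Krt18 was at -0.48 (edgeR adjusted p = 0.0147), a call lost when replicate 1 or 2 of either line was left out (0.0537 to 0.085). Collagen genes were lower for 3 of 32 (9.38%), ribosomal protein genes for 1 of 84 (1.19%), and none of 24 mitochondrially encoded genes was called, by edgeR.

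Slc2a1, a glucose transporter, was at 0.47 (edgeR adjusted p = 0.0266), a call lost when het replicate 1 or 2 or parental replicate 2 or 3 was left out (0.0715 to 0.133). Slc2a3, the transporter of neurons, rose by 0.32 (edgeR adjusted p = 0.00795). Of 37 genes of hypoxia and glucose uptake, 4 were higher and 4 lower (10.8% each). Without parental replicate 2 the counts were 1 and 0, and with the 6 libraries alone 10 and 6. In the WNT pathway list, 4 of 32 genes tested were higher, Lef1 among them, and 4 lower (12.5% each). Among the lower ones, Axin2, a feedback inhibitor and target of WNT signals, had 22.7, 22.6 and 22 CPM in het and 39.8, 38.1 and 36.9 CPM in parental cells, a fall of 0.77 (edgeR adjusted p = 8.94e-06).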
